A study of Danio rerio with 37 samples.

Results

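Zebrafish whole embryos collected 6 hours after fertilization (6 hpf), at the onset of gastrulation, were sequenced after GFP was targeted with Cas7-11 at the lower of 2 GFP doses, 10 pg. The comparison rests on the sample titles and takes 4 knockdown libraries and 4 control libraries, 8 of the 37 libraries of the series. Cas7-11 with 50 pg of GFP (3 libraries per arm) served as a second measurement. RfxCas13d at 10 pg (3 control and 2 knockdown libraries) and DjCas13d at 10 pg (3 libraries per arm) served to compare effectors. All groups share the species, the stage and the tissue. The labels do not give a strain, the number of embryos behind a library, the guide, the form in which Cas7-11 was supplied or what the controls received. Nor do they state that the replicates stem from different clutches; the p-values thus reflect variation among these libraries, possibly technical only. The design text refers to how maternal mRNAs are cleared when primary miR-430 is knocked down; in the titles GFP is the one target named.

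Cas7-11 is a single-protein CRISPR effector that carries a guide RNA and cuts RNA that matches it. It was described as lacking the broad cutting of bystander RNA that activated Cas13 enzymes can show. At 6 hpf an embryo still holds RNA loaded into the egg by the mother and has begun to transcribe its own genes. A comparison of an injected reporter with all other genes therefore asks how far the reporter fell and which endogenous mRNAs differed with it.

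The 8 libraries were deep and alike in most technical measures. Unmapped reads took 6.0%, 6.13%, 8.79% and 8.57% of reads in controls (replicates 1 to 4). In the knockdown they took 7.26%, 4.63%, 6.42% and 6.87%. Control replicates 3 and 4 were thus above 1 and 2 in this measure, with no such split in the knockdown. Gene-assigned reads per library, in units of 1e6, were 17.432 to 23.017. Malat1, a nuclear noncoding RNA that marks a separate set of libraries elsewhere in the series, stood at 590 to 1156 CPM (reads of a gene scaled to a common library size) in controls and 599 to 1054 CPM in the knockdown. The mRNAs encoded in mitochondria took 1.5% to 1.85% of reads in controls and 1.6% to 2.18% in the knockdown. Within arms, the 12 pairs of libraries differed by 6.08 to 51.4 in chi-square per degree of freedom, so no library was a repeat deposit. The first principal component held 53.5% of the variance and separated replicates 1 and 2 from replicates 3 and 4 in both arms. The second held 11.7% and was positive in the 4 controls and negative in the 4 knockdown libraries. With replicates 1 and 2 against 3 and 4 as a term in the fit, 480 genes (2.94%) differed between these pairs of replicates, which the labels do not explain.

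Marker genes matched the stage. The 10 gastrula genes, among them tbxta of the mesoderm and gsc of the organizer, were present in every library and summed to 1281 to 1768 TPM in controls and 1564 to 1722 TPM in the knockdown. Keratins and other markers of the enveloping layer (5 genes) summed to 8039 to 10340 TPM and 7990 to 9228 TPM. The 4 markers of the yolk syncytial layer summed to 5942 to 7437 TPM and 6057 to 7327 TPM, and the 3 germ cell markers to 82.1 to 141 TPM and 115 to 131 TPM. The 9 markers of later or adult tissues, such as globin, muscle and lens genes, summed to 1.02 to 2.16 TPM and 1.42 to 2.02 TPM, and the lens gene cryaa was listed at 0 in all 8 libraries. In RNA from whole embryos, fewer cells of a type and less RNA per cell cannot be told apart.

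GFP mRNA was lower in every knockdown library than in every control library. In controls it stood at 224, 279, 305 and 253 TPM (relative abundance corrected for gene length, replicates 1 to 4) and in the knockdown at 35.0, 43.0, 59.7 and 70.4 TPM. The arms did not overlap: the highest knockdown library was well below the lowest control. Controls averaged 265 ± 35.0 TPM and the knockdown 52.0 ± 16.0 TPM (SD, n = 4 each), 80.4% lower. Same-numbered libraries differed 6.39-fold, 6.48-fold, 5.11-fold and 3.59-fold. The two-sided exact permutation test on log2(TPM + 1) gave p = 0.0286, the smallest that 4 against 4 libraries allow. In limma over all genes and all 37 libraries the difference was -2.37 ± 0.53 on the log2(TPM + 1) scale (SE; 95% interval -3.46 to -1.28; unadjusted p = 0.000112), with an adjusted p of 0.142 over 16707 genes. That SE comes from a spread pooled over all groups, in some of which GFP varied more. Fitted on the 8 libraries alone the SE was 0.21 and the limma adjusted p was 0.00627.

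GFP remained a well-represented mRNA after knockdown. In controls 590 genes had a higher mean TPM than GFP, and in the knockdown 2754 genes did. The 10 pg embryos held less GFP in both arms than those with 50 pg, whose controls averaged 1094 ± 342 TPM (n = 3) and whose knockdown averaged 261 ± 46.5 TPM (n = 3), 76.2% lower. The mean at 50 pg was 4.12 times that at 10 pg in controls and 5.01 times in the knockdown, so the level was higher at 50 pg in both arms, and the knockdown means were 5.09-fold and 4.19-fold below their controls. The responses at the 2 doses differed by 0.34 ± 0.81 on the log2 scale (limma, 95% interval -1.32 to 2.01, adjusted p = 1). In the 14 Cas7-11 libraries alone the interval was -0.40 to 1.09.

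**Figure D1:**
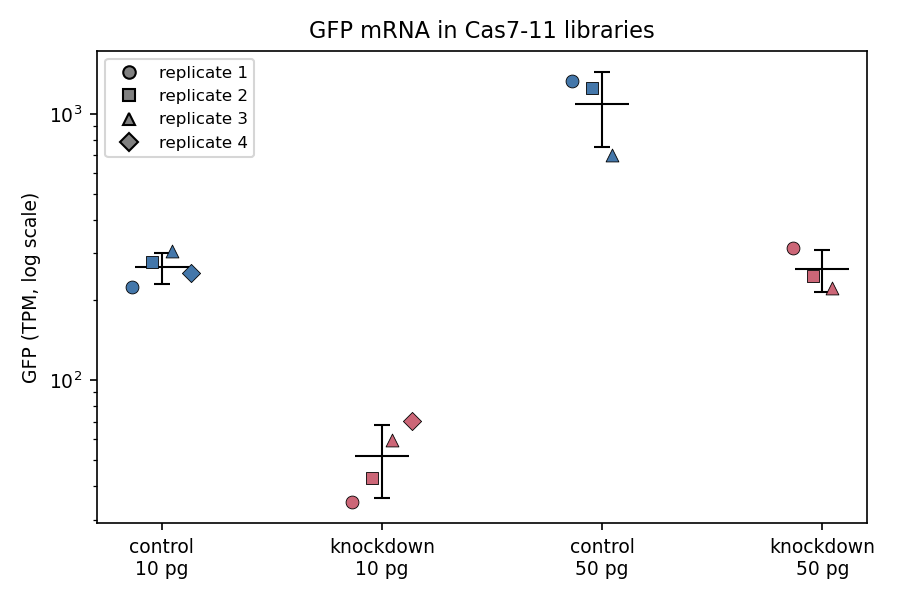
GFP level in each Cas7-11 library in TPM on a log axis, by dose and arm. Each symbol is 1 library, with its shape giving the replicate number, and bars give the mean and SD. The 4 knockdown libraries at 10 pg lie between 35.0 and 70.4 TPM, below the controls at 224 to 305 TPM, and the arms are also apart at 50 pg.

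Very few endogenous mRNAs passed the test. Of 16321 genes tested with edgeR's quasi-likelihood test, 12 passed an adjusted p of 0.05 (0.0735%), 11 of them lower (0.0674%) and 1 higher (0.00613%) in the knockdown. A further measure of how small the difference was is the number of genes bounded by their interval: for 11083 genes (67.9%) the 95% interval lay within 2-fold in either direction. The median log2 change was -0.02, with quartiles at -0.17 and 0.12. At an unadjusted p of 0.05, 423 genes passed (2.59%), 152 higher and 271 lower (1.66%). That share is below 0.05 itself, and the spread was pooled over all 37 libraries, so over all genes the test was cautious for these 8. It was not cautious for each called gene. In the edgeR fit on the 8 libraries alone, ostf1, pdlim1, iars2, nnt, nme3 and NSMAF had adjusted p-values of 0.168 to 0.468. Fitted on the 8 libraries alone, 950 of 15897 genes had an unadjusted edgeR p under 0.05. With the replicate number as a term in that fit, 1500 did. The small count of genes thus depends in part on the fit. In counts simulated from the fit's own spread, without a split of replicates, the test recovered 13.4% of genes changed 1.5-fold. It recovered 44.8% of those changed 2-fold and 89.4% of those changed 4-fold. Changes under 2-fold were often beyond reach in such data and may be missed here.

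**Figure D2:**
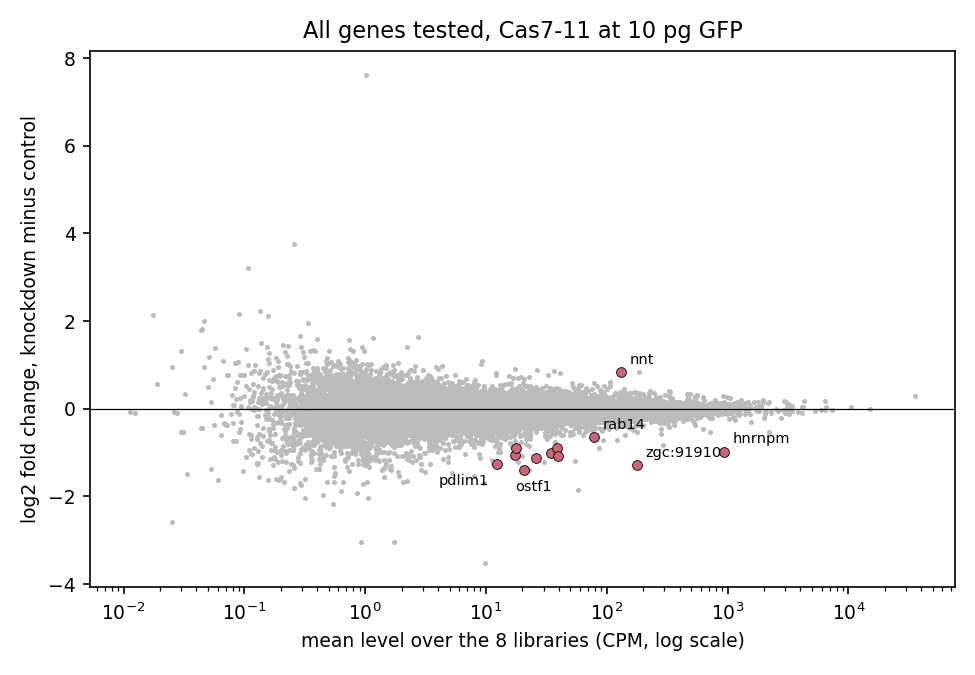
Log2 fold change (knockdown minus control) of all 16321 genes tested against their mean level over the 8 libraries in CPM, on a log axis. Red points are the 12 genes past the threshold, of which 6 are labelled; most genes lie close to 0, and 1 red point (nnt) lies above it.

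All 12 genes lay above the median level of the genes tested. They averaged 8.98 TPM (iars2) to 952 TPM (hnrnpm) in controls, with a median of 33.2 TPM against 8.19 TPM for all genes tested. Of the 12, 11 were found in the RefSeq gene table; all 11 are protein-coding, they lie on 10 chromosomes and no 2 of them are neighbours. In each of the 12 the arms did not overlap, which held for 750 of all genes (4.60%). Choosing genes by small p-values in these same libraries favours this, so it is no separate support. The gene roles given here are known chiefly from mammals.

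The 2 genes with the smallest p-values carry clone names and no role that can be given here; they fall outside the rule for named genes and were chosen after their values were seen. The first, zgc:100918, stood at 32.4, 34.5, 35.9 and 39.0 CPM in controls and 13.2, 18.2, 19.1 and 14.3 CPM in the knockdown. It fell by 1.13 ± 0.12 on the log2 scale (SE, adjusted p = 3.64e-06), 54.3% lower. Every knockdown library was well below every control, with little spread within the arms. The second, zgc:91910, one of the 2 most abundant of the 12, stood at 220, 226, 268 and 286 CPM in controls and 97.5, 97.9, 120 and 95.5 CPM in the knockdown. It fell by 1.29 ± 0.17 (adjusted p = 9.89e-05).

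Among genes for proteins of the cytoskeleton and cell signalling, ostf1 and pdlim1 fell. Ostf1 encodes osteoclast-stimulating factor 1, an intracellular adaptor with SH3 and ankyrin domains. It stood at 19.5, 21.5, 37.4 and 40.8 CPM in controls and 10.1, 11.4, 12.4 and 11.2 CPM in the knockdown, a fall by 1.40 ± 0.21 (adjusted p = 0.000641). The controls split into a lower pair (replicates 1 and 2) and a higher pair (3 and 4), while the knockdown libraries lay close together. Within replicates 1 and 2 the log2 difference was -0.93 and within 3 and 4 it was -1.73. Pdlim1, which encodes a PDZ and LIM domain protein of actin fibres, stood at 12.5, 14.8, 23.7 and 19.1 CPM in controls and 7.41, 7.35, 8.48 and 6.00 CPM in the knockdown. It fell by 1.26 ± 0.19 (adjusted p = 0.000681), with log2 differences of -0.88 within replicates 1 and 2 and -1.56 within 3 and 4. The same 2 controls were high for both genes. Of 26 tested actin cytoskeleton and adhesion genes none passed, and their median log2 change was 0.05. Of 11 tested PDZ-LIM and LIM genes pdlim1 was the 1 gene that passed (median 0.0). At an unadjusted edgeR p under 0.05, 4 of the 11 were lower, pdlim1 among them, and 1 was higher. Over all genes 1.66% were lower at that p. Csrp2 was at -1.09 ± 0.40 and lima1a at -0.42 ± 0.18, both with overlapping arms, and at 50 pg they were at -0.33 and 0.21.

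The gene for heterogeneous nuclear ribonucleoprotein M, hnrnpm, was the most abundant of the 12. Its product is a nuclear RNA-binding protein that takes part in the splicing of pre-mRNA. It stood at 1343, 1314, 1226 and 1112 CPM in controls and 655, 605, 602 and 672 CPM in the knockdown, 49.3% lower, a fall by 0.98 ± 0.15 (adjusted p = 0.000681). Both arms were tight, and the difference was of like size within replicates 1 and 2 (-1.08) and within 3 and 4 (-0.87). None of the 48 tested spliceosome and SR protein genes passed the test, and their median log2 change was -0.06.

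Lysosomal and endosomal proteins are encoded by 3 of the genes that fell. Aga encodes aspartylglucosaminidase, which removes sugar chains from asparagine when glycoproteins are broken down in the lysosome. It stood at 19.3, 25.5, 24.5 and 24.8 CPM in controls and 10.3, 11.2, 11.9 and 12.1 CPM in the knockdown, a fall by 1.05 ± 0.19 (adjusted p = 0.00727). Pla2g15, the gene of a lysosomal phospholipase A2, stood at 57.3, 44.8, 56.1 and 57.5 CPM in controls and 29.8, 26.5, 24.5 and 21.9 CPM in the knockdown, a fall by 1.07 ± 0.19 (adjusted p = 0.00604). In both genes 1 control was lower than the other 3 and still above all knockdown libraries. Rab14, the gene of a small GTPase of endosomal and Golgi traffic, had the smallest change of the 12. It stood at 97.3, 97.6, 98.0 and 91.4 CPM in controls and 60.9, 66.8, 61.1 and 55.8 CPM in the knockdown, a fall by 0.65 ± 0.12 (adjusted p = 0.0180).

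Of 40 tested lysosomal hydrolases, a list that does not hold pla2g15, aga was the 1 gene that passed, and the median log2 change was 0.01, against -0.02 for all genes. Lgmn, the gene of the protease legumain, had an unadjusted p of 0.00328 and was higher, at 0.35 ± 0.11 (adjusted p = 0.776). Of 25 genes of the lysosomal membrane and its biogenesis none passed; atp6v1d, a subunit of the proton pump, was at -0.57 ± 0.17 (adjusted p = 0.763).

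Mitochondrial proteins are encoded by a gene that fell and by the 1 gene that rose. Iars2 encodes the mitochondrial isoleucyl-tRNA synthetase, which charges the tRNA used for protein synthesis inside mitochondria. It stood at 33.7, 36.2, 59.7 and 54.6 CPM in controls and 17.5, 19.7, 26.9 and 26.9 CPM in the knockdown, a fall by 1.01 ± 0.17 (adjusted p = 0.00225). Replicates 3 and 4 were above 1 and 2 in both arms, and the difference was -0.91 within the first pair and -1.08 within the second. Nnt encodes the nicotinamide nucleotide transhydrogenase of the inner mitochondrial membrane, which makes NADPH. It stood at 69.0, 73.8, 121 and 112 CPM in controls and 145, 137, 184 and 208 CPM in the knockdown, a rise by 0.84 ± 0.16 (adjusted p = 0.0189), 1.79-fold. It showed the same pairing, with log2 differences of 0.98 within replicates 1 and 2 and 0.76 within 3 and 4.

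Iars2 was the 1 gene to pass among 19 tested mitochondrial aminoacyl-tRNA synthetases (median log2 change -0.10), and none of the 22 cytosolic ones passed (median -0.02). Among 35 tested mitochondrial redox and antioxidant genes nnt was the 1 gene to pass (median 0.07). None of 43 nuclear oxidative phosphorylation genes (median -0.02), 30 genes of the tricarboxylic acid cycle (median 0.04) or 13 mRNAs encoded in mitochondria (median 0.14) passed.

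The last 2 genes were closest to the threshold. Nme3 encodes a member of the nucleoside diphosphate kinase family. It stood at 27.1, 26.8, 17.2 and 22 CPM in controls and 13.5, 12.3, 13.1 and 11.0 CPM in the knockdown, a fall by 0.90 ± 0.18 (adjusted p = 0.0380). NSMAF encodes an adaptor that links a TNF receptor to neutral sphingomyelinase. It stood at 38.5, 40.8, 59.5 and 60.9 CPM in controls and 26.4, 30.5, 27.4 and 23.0 CPM in the knockdown, a fall by 0.89 ± 0.18 (adjusted p = 0.0380). The arms did not overlap in either gene, though the controls of NSMAF split like those of ostf1.

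**Figure D3:**
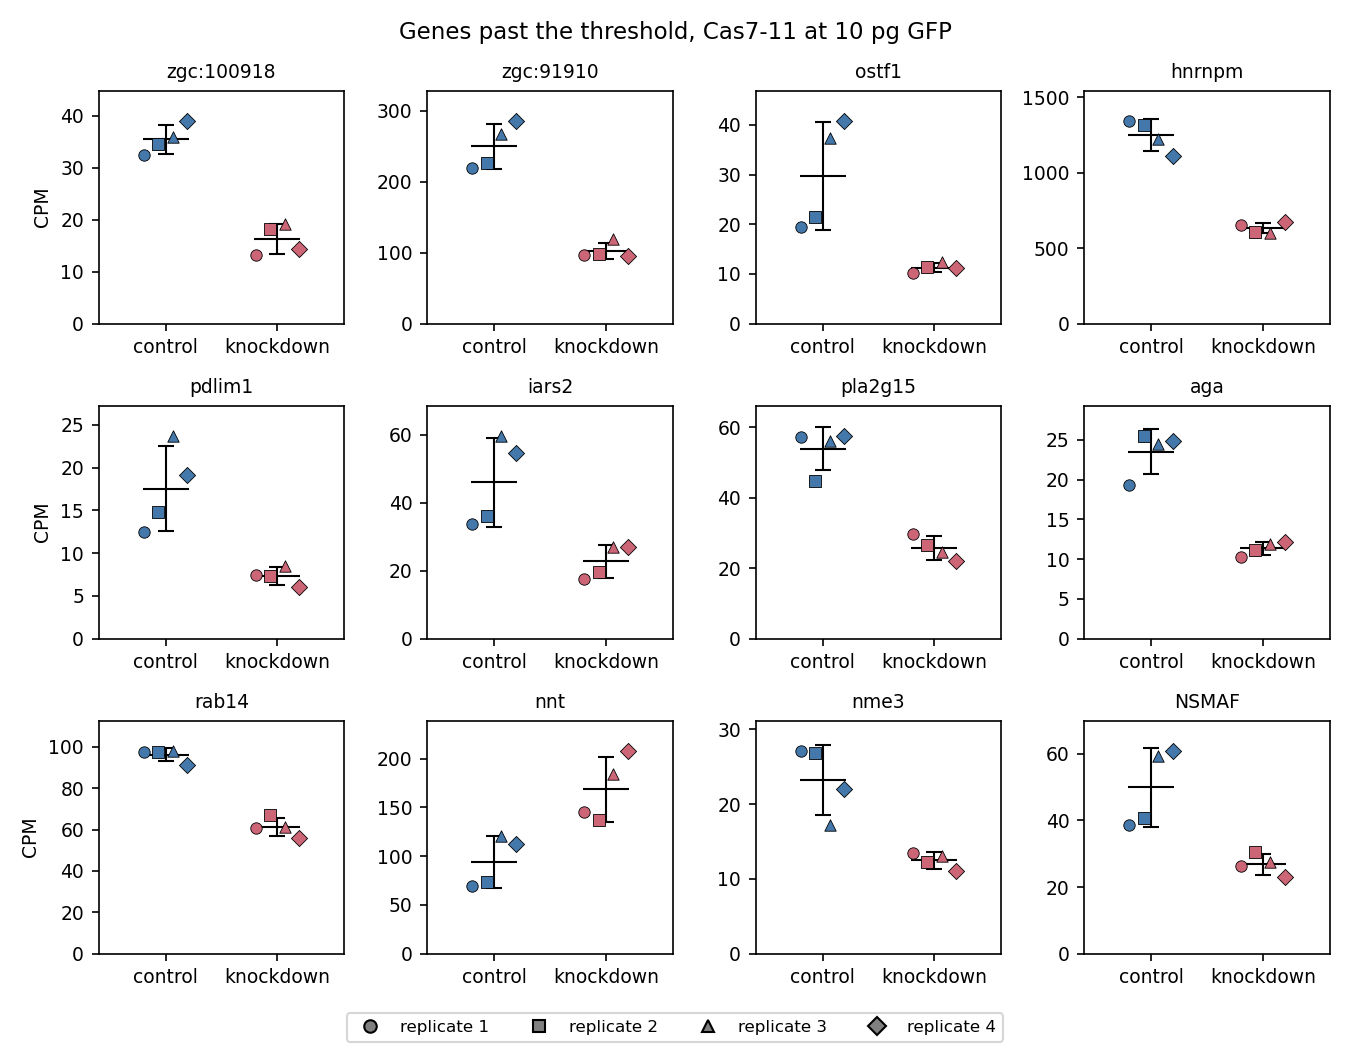
CPM of the 12 genes past the threshold in the 8 libraries, 1 panel per gene with its own axis from 0. Blue symbols are controls and red symbols the knockdown, the symbol's shape gives the replicate number, and bars give the mean and SD (n = 4). The arms are apart in every panel, nnt is the 1 gene that is higher in the knockdown, and in ostf1, pdlim1, iars2, nnt and NSMAF control replicates 3 and 4 lie above 1 and 2.

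Replicates 1 and 2 varied apart from 3 and 4 in both arms, and pairing by number beyond this split is not settled. With the replicate number as a block the fit also called 12 genes, not all of them the same. Nme3 and NSMAF no longer passed (adjusted p = 0.0651 and 0.0803 with the block). USP10, the gene of a deubiquitinase, and zp3b, the gene of an egg coat protein, passed in their place. USP10 stood at 317, 299, 461 and 405 CPM in controls and 191, 160, 237 and 251 CPM in the knockdown, at -0.82 ± 0.16 with the block (adjusted p = 0.0243) and with an adjusted p of 0.0606 without it. Zp3b, carried over from the egg, stood at 15.7, 20.5, 34.2 and 32.7 CPM in controls and 41.7, 42.7, 42.2 and 61.1 CPM in the knockdown, at 0.92 ± 0.19 with the block (adjusted p = 0.0459) and 0.164 without it. At 50 pg zp3b was at 0.47 ± 0.24 with overlapping arms, and USP10 at -0.95 ± 0.20. Of the 45 maternal and oocyte mRNAs tested none passed without the block, and their median log2 change was 0.10.

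When the spread was taken from the 8 libraries alone, with the block, 21 genes passed: 10 of the 12, without nme3 and NSMAF, and 11 others, 8 lower and 3 higher. These 11, USP10 among them, were chosen after their values were seen. The lower ones included SLC7A1, a carrier of cationic amino acids, at 68.0, 55.1, 91.1 and 89.4 CPM in controls and 27.5, 29.9, 39.9 and 34.9 CPM in the knockdown (-1.18 ± 0.11, adjusted p = 0.00551). Limd2, the gene of a small LIM domain protein, had the largest change of the 11, from 12.3, 14.6, 18 and 14.1 CPM to 4.43, 5.22, 5.05 and 3.34 CPM (-1.70 ± 0.16, adjusted p = 0.00551). The others that were lower were spint1b, the gene of a Kunitz-type protease inhibitor (-1.32), tent5ba of a family of noncanonical poly(A) polymerases (-1.21), EIF2AK3, the gene of the stress kinase PERK (-1.05), plbd1a (-0.81) and the connexin gene gjc4b (-0.52). The 3 that were higher were the aldehyde dehydrogenase gene aldh9a1a.1 (0.85), iqgap1, which encodes an actin scaffold (0.86), and serinc1 (0.63). In the fit over all 37 libraries these 11 had adjusted p-values of 0.0606 to 1. At 50 pg, 10 of the 11 lay in the same direction with no overlap between the arms, where 15.8% of all genes had none in either direction. The exception was plbd1a, at 0.17.

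The 50 pg libraries share no library with those at 10 pg and gave the same direction for all 12 genes. All 12 had an unadjusted p under 0.05 there, which held for 3.22% of all genes, and in all 12 the arms did not overlap, which held for 15.8% of all genes (7.86% lower). The p-values of the doses come from the same edgeR fit, with a shared spread per gene, so they are not independent. In ostf1, pdlim1, iars2, nnt and NSMAF, control replicate 3 lay above 1 and 2 at 50 pg too (nnt at 65.7, 71.8 and 119 CPM). The 50 pg knockdown of nnt showed no such split (164, 163 and 153 CPM). Whether same-numbered replicates of the 2 doses share a source is not in the labels and was not tested. At the adjusted threshold 10 genes passed at 50 pg (0.0613%), all lower, and 7 were among the 12 (58.3% of the 10 pg calls and 70% of the 50 pg calls): zgc:100918, zgc:91910, ostf1, hnrnpm, pdlim1, iars2 and aga. Nnt was at 0.90 ± 0.19 and NSMAF at -1.01 ± 0.21 at 50 pg, both with an adjusted p of 0.0504. Pla2g15 was at -0.94 ± 0.22, nme3 at -0.75 ± 0.21 and rab14 at -0.56 ± 0.14, with adjusted p-values of 0.127, 0.541 and 0.301. Ostf1 was lowest against its controls at both doses, at -1.40 and -1.81.

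The other 3 genes called at 50 pg were also lower at 10 pg without passing there. Maf1a encodes a repressor of RNA polymerase III and was at -0.73 at 50 pg and -0.47 ± 0.12 at 10 pg (adjusted p = 0.273). Stmn1a, the gene of the microtubule regulator stathmin, was at -0.80 and -0.50 ± 0.14 (adjusted p = 0.465), and cnpy3, the gene of a chaperone of the endoplasmic reticulum, at -1.36 and -0.68 ± 0.23 (adjusted p = 1). No gene passed the edgeR test of the difference between the doses, where 200 genes had an unadjusted p under 0.05 (1.23%), and no gene passed DESeq2 either. For the 12 genes that difference ran from -0.41 (ostf1, 95% interval -1.05 to 0.22) to 0.15 (nme3, -0.42 to 0.71). Over all genes, 185 had no overlap between arms at both doses in the same direction, 124 lower and 61 higher, and 21 in opposite directions.

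**Figure D4:**
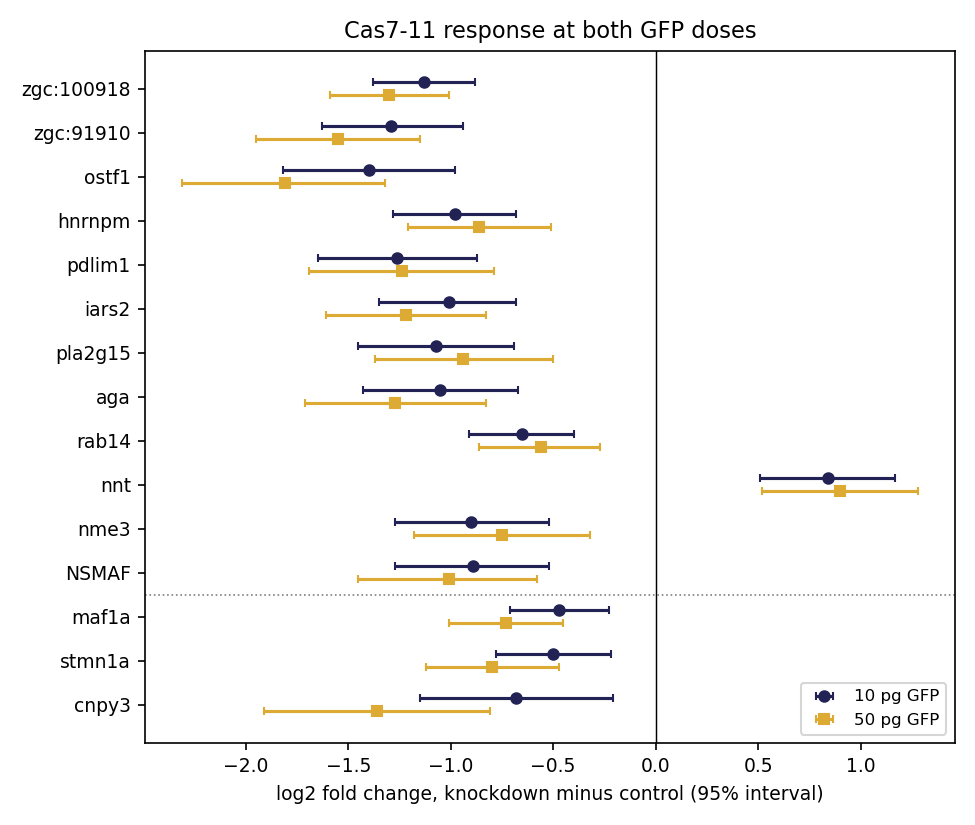
Log2 fold change (knockdown minus control) with its 95% interval at 10 pg (dark circles) and 50 pg (yellow squares) for the 12 genes called at 10 pg, above the dotted line, and the 3 called at 50 pg alone, below it. All 15 genes lie on the same side of 0 at both doses, and the intervals of the 2 doses overlap in each.

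Against the Cas13d effectors at the same GFP dose, 3 of the 12 genes passed with RfxCas13d and none with DjCas13d. With RfxCas13d, pla2g15 was higher in the knockdown (0.76, adjusted p = 0.0346), as were 1142 genes in all (7.0%). Ostf1 and zgc:91910 were lower (-0.95 and -0.77, adjusted p = 0.0218 and 0.0214), as were 1139 genes (6.98%), while the other 9 did not pass. With DjCas13d none of the 12 passed edgeR, nor did any other gene (2553 genes, 15.6%, at an unadjusted p under 0.05), and their log2 changes ran from -0.38 (zgc:100918) to 0.32 (nme3). The test of the difference between Cas7-11 and RfxCas13d responses called 1038 genes (6.36%). It gave -1.83 ± 0.30 for pla2g15 (adjusted p = 0.00214), -1.40 ± 0.24 for hnrnpm (0.00234) and 1.13 ± 0.27 for nnt (0.0156). Ostf1, NSMAF and zgc:91910 did not pass, at -0.45, -0.48 and -0.52.

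That comparison rests on few RfxCas13d libraries, some of them rich in malat1. Malat1 exceeded 5000 CPM in 5 libraries of the series, 2 of them RfxCas13d controls at 10 pg and 2 of them in the DjCas13d knockdown at 10 pg. Without these 5 libraries, replicate 2 is the only RfxCas13d control at 10 pg, so effect sizes alone are given. Pla2g15, hnrnpm and nnt were then at -1.65, -1.19 and 1.06 in the difference from RfxCas13d. Malat1 content and the loss of RfxCas13d controls cannot be told apart in this step. In the difference from DjCas13d 0 genes passed edgeR, 1543 had an unadjusted p under 0.05 (9.45%) and 30 passed DESeq2; leaving out replicate 3 of the DjCas13d knockdown, the 1 library of that arm with little malat1, gave 731. The Cas7-11 comparison itself kept its 12 genes without the malat1-rich libraries and called 19 in all.

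GFP differed between effectors as well. The Cas7-11 response was smaller than that of RfxCas13d by 5.25 ± 0.87 (limma on log2(TPM + 1), adjusted p = 0.00143) and than that of DjCas13d by 5.64 ± 0.81 (adjusted p = 0.00186). Control GFP averaged 265 ± 35.0 TPM with Cas7-11, 1983 ± 2149 TPM with RfxCas13d and 3385 ± 251 TPM with DjCas13d (SD). The RfxCas13d controls stood at 676, 4464 and 811 TPM (replicates 1 to 3), and replicates 1 and 3 were the malat1-rich ones. Effector and GFP level in controls cannot be told apart here.

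**Figure D5:**
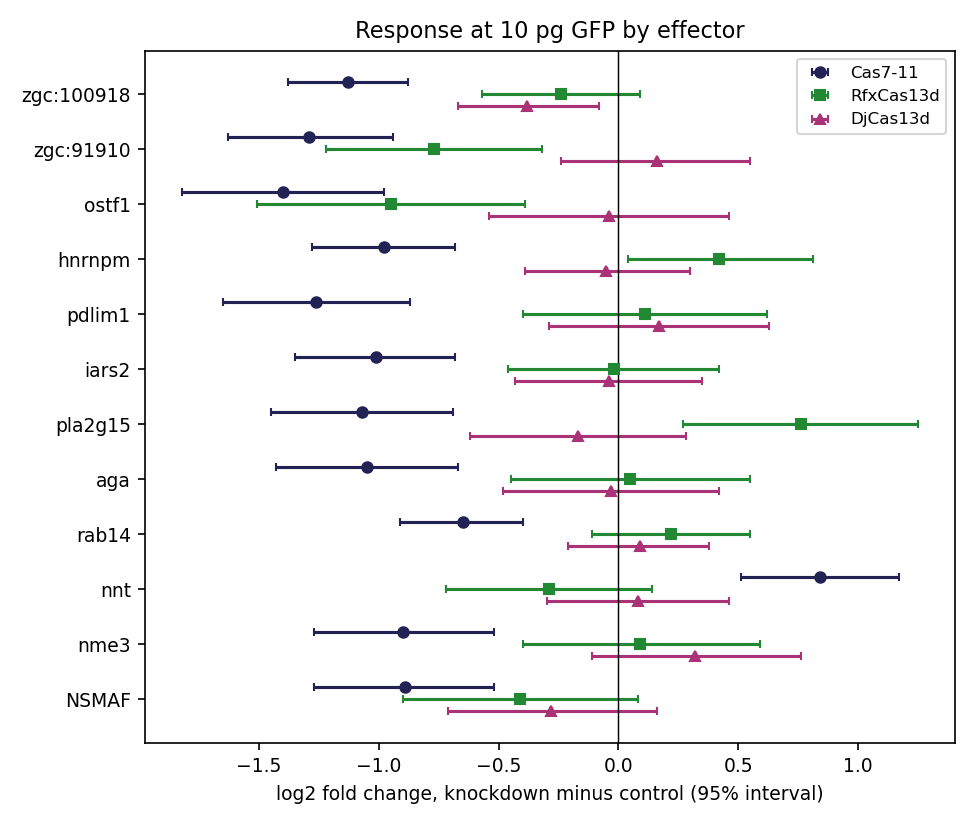
Log2 fold change (knockdown minus control) at 10 pg of GFP with its 95% interval for the 12 genes, by effector: Cas7-11 (dark circles), RfxCas13d (green squares) and DjCas13d (purple triangles). The genes were chosen on the Cas7-11 values, which lie away from 0 in all 12; zgc:91910 and ostf1 are also lower with RfxCas13d, and pla2g15 is higher.

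The gene lists for the embryo's layers, axes and machinery showed little movement. Of 38 lists, 34 held no gene past the threshold and 4 held 1 each (pdlim1, aga, iars2 and nnt), and list medians ran from -0.22 to 0.26, with 28 of them within 0.1 of 0. Of the 17 tested published targets of miR-430, the microRNA named in the design text, none passed (median 0.02); snai1a was at -0.41 ± 0.18 and lft1, a Nodal antagonist, at 0.48 ± 0.23 (adjusted p = 1 for both). None of the 45 tested genes of zygotic genome activation (median 0.03), 33 ventral BMP genes (median -0.16), 24 organizer and axial mesoderm genes (median 0.11), 35 mesendoderm genes (median -0.02) or 29 enveloping layer markers (median -0.05) passed. Of 22 germ plasm and germ cell genes none passed (median 0.10); nanos3, which germ cells need to survive, was at 0.74 ± 0.26 (adjusted p = 1).

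Genes of translation, RNA turnover and the response to foreign RNA did not pass the test either. None of 79 tested ribosomal protein genes (median 0.05), 39 translation factors (median -0.03), 44 decay and deadenylation genes (median -0.02), 19 genes of RNA ligation and repair (median 0.00) or 37 proteasome genes (median -0.01) passed. Eif4h, an accessory factor of translation initiation, was at -0.47 ± 0.13 (adjusted p = 0.548). Of 26 innate immune and RNA-sensing genes none passed (median -0.14). Isg15, an interferon-induced gene, stood at 63.0, 55.9, 172 and 157 CPM in controls and 65.3, 74.9, 51.9 and 48.2 CPM in the knockdown, so the arms overlapped and the difference of -0.90 ± 0.59 did not pass (adjusted p = 1).

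The p53 targets mdm2 and cdkn1a were at 0.05 ± 0.28 and -0.06 ± 0.41, and the stress factors atf3 and ddit3 at 0.05 ± 0.32 and -0.06 ± 0.45 (adjusted p = 1 for all 4). Among 24 apoptosis genes none passed (median 0.07); casp3a, an executioner caspase, was at 0.28 ± 0.12 and pmaip1, a promoter of cell death, at 0.45 ± 0.19 (adjusted p = 1 for both). None of 28 integrated stress and unfolded protein response genes passed (median -0.08), and EIF2AK3 had the smallest p, at -1.08 ± 0.28 (adjusted p = 0.386). It passed in the 8 libraries alone with the replicate block (-1.05, adjusted p = 0.0143).

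None of the 22 tested heat shock chaperones passed (median -0.14), and 6 had an unadjusted p under 0.05, all lower, against 1.66% of all genes that were lower at that p. Hsp70.3 stood at 3.67, 34.2, 1.12 and 32.7 CPM in controls and 0.973, 1.21, 3.28 and 0.762 CPM in the knockdown, so control replicates 2 and 4 were high, control replicate 1 was just above the highest knockdown library and control replicate 3 was within the knockdown range (-3.52 ± 0.81, adjusted p = 0.146). Hsp90aa1.2 followed the same libraries, at 41.2, 182, 17.4 and 121 CPM in controls and 15.2, 17.4, 50.7 and 16.8 CPM in the knockdown (-1.85 ± 0.55, adjusted p = 0.738). Hsp70l was at -1.65 ± 0.66 (adjusted p = 1), with 9.61 CPM in control replicate 4 and 0.335 to 2.36 CPM in the other controls. Hsp70.2 was at -3.05 ± 0.83 (adjusted p = 0.432), with overlapping arms. At 50 pg hsp70.3 was at -0.56 ± 0.83 and hsp90aa1.2 at -0.08 ± 0.61. Hsp70.2 and hsp70l were still lower there, at -1.47 ± 0.85 and -1.36 ± 0.72. The arms overlapped at 50 pg in each of these genes, and none passed. Copies of hsp70 are nearly identical, so the split of reads between them is uncertain.

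Leaving out each of the 8 libraries in turn left 7 to 11 genes past the threshold. The 2 zgc genes, ostf1, hnrnpm, pdlim1 and iars2 passed in all 8 of these fits. Without knockdown replicate 4 the count was 7, and pla2g15, rab14, nnt, nme3 and NSMAF no longer passed; aga did not pass without knockdown replicate 1 (adjusted p = 0.0638). Nnt did not pass without control replicate 1 or 2 or knockdown replicate 3 or 4, where its log2 change was still 0.73 or more. Rab14 and nme3 each passed in 1 of the 8 fits and NSMAF in 2. Every log2 change of the 12 kept its sign, which the lack of overlap between the arms made close to certain in advance.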

How the data were processed

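The authors deposited, for each of 37 libraries, a table of raw read counts per gene (32520 genes) and a table of TPM values; the build was danRer11, per the submitters' processing notes. Per the labels' protocols, RNA was isolated by TRIzol and a directional kit was used. Neither the aligner nor the counter or its strand mode is given in the sources used here, so overlapping, antisense and near-identical genes are uncertain. GFP was listed in the TPM tables of all libraries but not in the counts of the Cas7-11 libraries, so it was compared in TPM. The deposited count tables end with 4 summary entries (19.7% to 22.6% of reads in the 8 libraries), which were left out. Gene symbols are those of the tables (20859 genes) or of a separate name table (8382).

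The count test was edgeR 4.0.16 (R 4.3.3): filterByExpr over 12 groups, TMM scaling, 1 robust quasi-likelihood fit over all 37 libraries with a coefficient per group, and Benjamini-Hochberg adjustment over 16321 genes (threshold 0.05). The biological coefficient of variation was 0.253. CPM are TMM-scaled. Gene values, SEs and adjusted p-values are from this fit unless another is named. For GFP, limma 3.58.1 was run on log2(TPM + 1), a scale that shrinks changes at low levels, over genes with a mean of at least 0.5 TPM, and with an exact permutation test. Simulated counts with 200 changed genes were put through the edgeR fit, and false calls made up 4.9% of its calls. They were drawn from that fit's own spread, with the same mean in all groups for unchanged genes. They held no split of replicates and no malat1-rich libraries, so the share of false calls in the real data is not known from them. Counting error weighs most in genes with few reads, and its share of the spread was not measured.

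Same-numbered control and knockdown libraries deviated together from their group means (r = 0.51, 0.34, 0.28 and 0.41 across genes for replicates 1 to 4). The replicate number was used as a block in some fits. Unlike numbers within 1 and 2 or within 3 and 4 also correlated (0.18 to 0.45), and those across were at -0.47 to -0.25. Knockdown 3 was as close to control 4 (0.29) as to control 3, and knockdown 4 to control 3 (0.45) as to control 4. Pairing by number within 3 and 4 is therefore not settled by these values.

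Named genes are the 10 largest rises and falls among called genes that average 1 log2 CPM or more, do not overlap between arms and have a gene name, by the main fit and with the block. To these come the 5 largest per direction in the other contrasts, GFP, 5 marker genes (ostf1, pdlim1, aga, iars2 and nnt), 5 stress genes and up to 3 members of each list with the smallest p. Genes so named in the difference from RfxCas13d, on which no result here turns, are not described, save hsp70.3. The comparison, lists and rule were chosen with earlier results of these data known. Alternatives (scaling, filters, sets of libraries, replicate block, DESeq2 1.42.0, limma) are given in the closing section. Sequences were not used here.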

Additional observations from a re-analysis of the deposited data

Results flagged for a closer look

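In 7 of the 98 groups of 4 libraries examined for the genes named, 1 library stood apart from the other 3; chance flags about 1 in 20 such groups. High libraries were knockdown replicate 3 for zgc:91910 (120 CPM) and for hsp90aa1.2 (50.7 CPM) and knockdown replicate 4 for zp3b (61.1 CPM). Low libraries were control replicate 2 for pla2g15 (44.8 CPM), control replicate 1 for aga (19.3 CPM), control replicate 4 for rab14 (91.4 CPM) and control replicate 3 for maf1a (75.6 CPM). In zgc:91910, pla2g15, aga, rab14, zp3b and maf1a the arms remained apart with these libraries in place.

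The response at 10 pg differed between Cas7-11 and RfxCas13d for 15 of the genes named, by edgeR's test of the difference itself. Over all genes tested the share was 6.36%. Most of these 15 were named for their values in the same Cas7-11 libraries, and hsp70.3 from this difference too. Such a choice favours large differences, so the 15 are no separate support. With Cas7-11 the value was lower for limd2 (-3.71), plbd1a (-2.68), pla2g15 (-1.83), hnrnpm (-1.40), pdlim1 (-1.37), aga (-1.10), atp6v1d (-1.06), iars2 (-1.0), nme3 (-0.99), zgc:100918 (-0.89) and rab14 (-0.87). It was also lower for the heat shock genes hsp70.3 (-5.01) and hsp90aa1.2 (-3.13). It was higher for nnt (1.13) and zp3b (1.12). Without the 5 malat1-rich libraries all 15 kept their sign (edgeR), with replicate 2 as the only RfxCas13d control at 10 pg. That fit reuses the Cas7-11 libraries and the RfxCas13d knockdown libraries, which favours kept signs. With 1 control left, it cannot settle whether these differences hold. GFP differed by 5.25 from RfxCas13d and by 5.64 from DjCas13d in limma on log2(TPM + 1), that is, it was lowered less with Cas7-11. In all these differences, effector cannot be told apart from GFP level in controls, sequencing depth and processing.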

How the results depend on the processing

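All 12 genes kept their direction in every alternative tried at 10 pg, and the 6 changes of scaling, filter or tool below kept 8 to 12 of them. With no overlap between the arms, the kept direction was close to fixed in advance and is no separate support. Against 12 genes at 10 pg, 11 to 14 passed with DESeq2 size factors, library size alone, no filter on low counts or a mean of at least 1 CPM; limma on log2(TPM + 1) called 9 and the DESeq2 Wald test 28. The 8 libraries alone gave 8, with 6 of the 12 among them: ostf1, pdlim1, iars2, nnt, nme3 and NSMAF had adjusted p-values of 0.168 to 0.468. The 14 Cas7-11 libraries gave 17 (8 of the 12), and all libraries but the malat1-rich ones 19 (all 12). With the replicate block over all 37 libraries 12 genes passed (10 of the 12), with the block in the 8 libraries 21, and with the block in the 14 Cas7-11 libraries, chosen after seeing the data, 23. A term for replicates 1 and 2 against 3 and 4 gave 14 (all 12). Using replicates 1 and 2 alone, also chosen later, gave 1 gene and replicates 3 and 4 alone 5, with fewer samples. Leaving out 1 library gave 7 to 11.

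At 50 pg, 16 genes passed without the malat1-rich libraries, 32 in DESeq2, and 4 to 7 with 1 library left out (4 without knockdown replicate 2 and 5 without knockdown replicate 1). The difference between doses stayed at 0 genes in every alternative. The difference from RfxCas13d (1038 genes) gave 1003 genes with the replicate block and 1896 in DESeq2. It gave 111 without RfxCas13d control replicate 1 at 10 pg and 3616 without control replicate 2. Fits that leave 1 RfxCas13d library in an arm, such as that without the malat1-rich libraries, are not counted here. The difference from DjCas13d (0 genes) gave 1 with library size alone, 30 in DESeq2 and 0 to 731 with 1 library left out. GFP at 10 pg kept -2.37 and passed the adjusted threshold in limma on the 8 libraries (-2.37), on the 8 with the replicate block (-2.37, adjusted p = 0.0227) and on the 14 (-2.37, adjusted p = 0.000257); with 1 library left out it was -2.53 to -2.20. The GFP difference between doses was 0.05 to 0.51.

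Among genes that did not pass, signs turned for 5. With 1 library left out, mdm2 was -0.04 to 0.17, cdkn1a -0.22 to 0.19, atf3 -0.14 to 0.18 and ddit3 -0.30 to 0.26. In replicates 3 and 4 alone these were -0.15, 0.13, -0.42 and 0.55. Atf3 was -0.02 in limma, and ddit3 was 0.05, 0.04 and 0.04 with the block (37, 8 and 14 libraries) and 0.08 with the term for replicates. Isg15 was 0.24 in replicates 1 and 2. The cause of these shifts was not tested. With 4 libraries per arm, simulated 1.5-fold changes were mostly missed.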
